A study of Mus musculus with 9 samples.

Results

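BMP response genes were followed in bulk RNA sequencing of mouse aorta. They comprised Id1, Id2, Id3 and Id4, the inhibitory Smad genes Smad6 and Smad7, the transcription factor gene Atoh8 and the ligand gene Bmp4. These 8 genes, of 17179 gene symbols in the deposited tables, were chosen by symbol. They are known BMP response genes and were selected on their FPKM in the same 9 libraries, with the differences between the groups in view, so their levels and differences are given as a description, with standard errors and no p-value. The study fed C57BL/6J mice β-aminopropionitrile (BAPN), an inhibitor of lysyl oxidase, the enzyme family behind cross-linked elastic and collagen fibres, to induce aortic dissection. The normal group drank distilled water (2 libraries). All other groups received BAPN at 1 g/kg/day: BAPN alone (2 libraries), BAPN with the AP-1 activator TPA injected intraperitoneally at 50 ng/g/day from day 1 (2 libraries), BAPN with the AP-1 inhibitor T-5224 by gavage at 5 mg/kg/day (2 libraries), and BAPN with coenzyme Q10 by gavage at 10 mg/kg/day (1 library). Gavage began on day 7 or 14 and mice were killed on day 28. The labels of the last library write the agent as "co110", read here as coQ10. T-5224 replicate 1 is titled 2 weeks and replicate 2 is titled 3 weeks. The 2 were taken as replicates because the labels number them. With gavage from day 7 or 14, the titles may give different lengths of treatment. The SDs and SEs of T-5224 may therefore include a difference in treatment, which was not tested. The age, sex and number of mice behind each library could not be taken from the labels, so the spread between libraries may be partly technical. Where a group had 1 library it had no replicate check.

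Bone morphogenetic proteins (BMPs) are secreted ligands that bind paired serine/threonine kinase receptors on the cell surface, which phosphorylate SMAD1, SMAD5 and SMAD9. These enter the nucleus with SMAD4 and raise transcription of the Id genes, whose products bind E proteins and keep these basic helix-loop-helix factors off DNA. SMAD6 and SMAD7 are induced by the same pathway and feed back to block the receptors. In arteries, BMP signalling is known from endothelium, where ALK1 (gene Acvrl1), endoglin and BMPR2 carry it, and from smooth muscle.

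Values were FPKM, fragments scaled by transcript length and by the library's total. This is meant to let genes of different length be set side by side within a library. That holds only in part here, because a trend with transcript length differed between libraries. Spearman's rho of a gene's level, less its mean over the libraries, with length was 0.28 and 0.4 in normal and -0.19 and -0.07 in BAPN. In T-5224 replicate 2 it was -0.37, and the other libraries lay between 0.01 and 0.11. Between libraries the scaling matters: rescaling each library to the same sum (TPM) moved the median difference of all tested genes in BAPN against normal from -0.51 to -1.92 log2. The libraries listed 13982 to 16204 genes and their FPKM summed to between 502238 and 1802047. The tables hold no read counts, so the depth behind each value is unknown. All 10 smooth muscle and all 12 endothelial markers were listed in every library. Haemoglobin genes held 68.9% to 74.1% of the FPKM in the BAPN and TPA libraries, 40.8% and 11.2% in T-5224 replicates 1 and 2, 5.4% in coQ10 and 1.03% and 1.25% in the normal libraries. Normal replicate 1, both TPA libraries and T-5224 replicate 2 carried airway epithelium genes (list mean 7.07 to 10.03 in log2(FPKM + 1), against at most 2.35 in the other 5), and the same 4 carried cardiac muscle genes (5.33 to 9.49, against at most 2.47). Skeletal muscle genes had means of 7.81 to 10.53 in these 4 and both BAPN libraries and at most 2.68 in the other 3. Normal replicate 1 listed none of 4 Y-linked genes, which the other 8 libraries listed. In bulk tissue, fewer cells of a type and less RNA per cell cannot be told apart.

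Id1, Id2, Id4, Smad6 and Atoh8 were lower in each of the 4 BAPN and TPA libraries than in each of the 5 normal, T-5224 and coQ10 libraries. Id3 and Bmp4 did not share this pattern, and Smad7 shared it except in T-5224 replicate 2. Of the 12997 genes with a mean of at least 1 FPKM, 10.2% were lower in the same 4 libraries without overlap. The gap between the highest of the 4 and the lowest of the 5 was 3.32-fold for Id1, 2.19-fold for Atoh8, 1.84-fold for Id2 and 1.26-fold for Id4. For Smad6 it was 1.01-fold, because T-5224 replicate 2 (10.16 FPKM) lay next to TPA replicate 1 (10.08 FPKM).

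**Figure D1:**
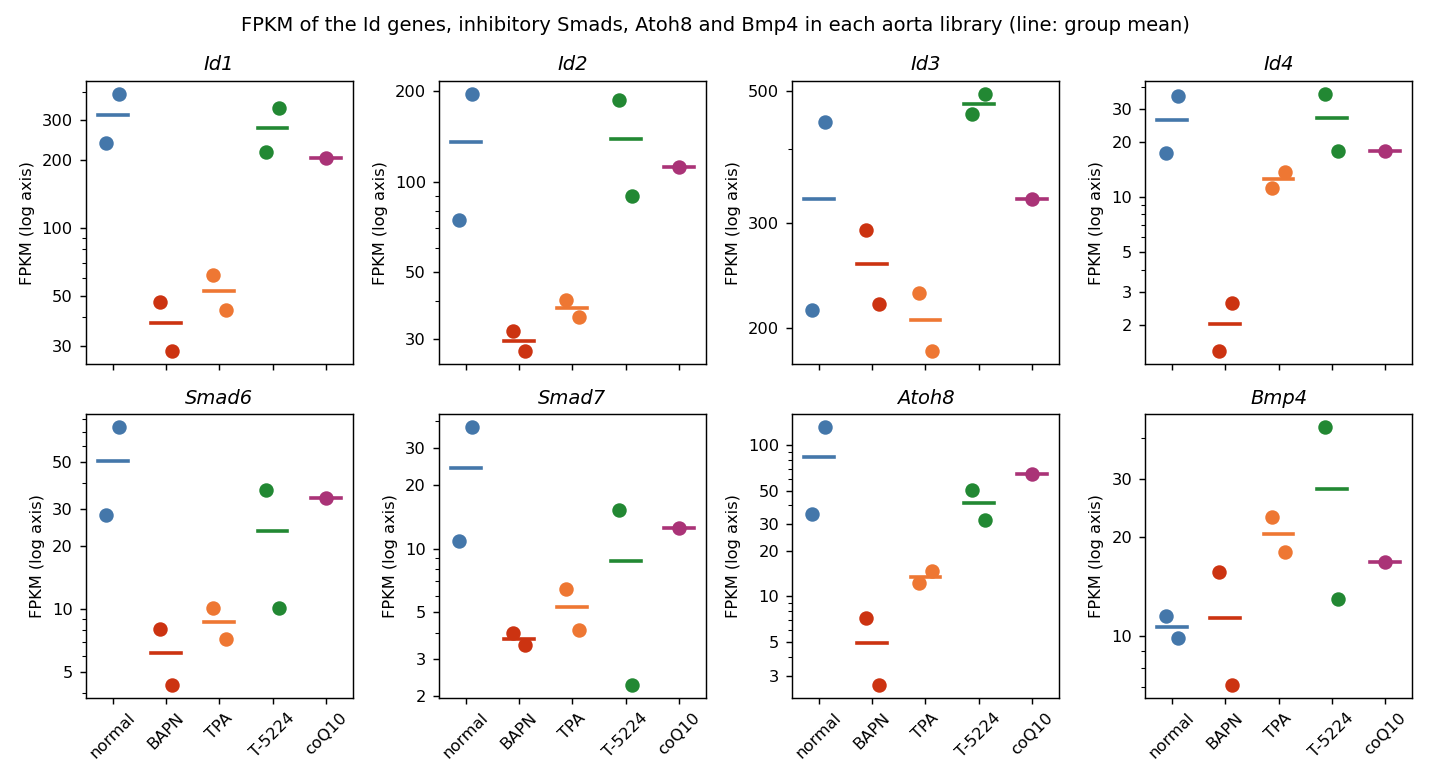
FPKM (log axis) of the 8 genes in each library, by group; points are libraries and lines are group means, with 2 libraries in each group except coQ10, which has 1. Id1 ran from 28.3 to 61.59 FPKM in the BAPN and TPA libraries and from 204.2 to 391 FPKM in the others, while Id3 and Bmp4 overlapped between those groups.

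Promoter sequences are shown for genes on both sides of this split: Smad6, Id2 and Id4, which were low in BAPN and TPA, and Id3, which overlapped between the groups. RefSeq (GRCm38.p6) held a promoter, 250 bases before to 50 after a start site, for 6 of the 8 genes. For Smad6 and Atoh8 this start site lies inside the gene span given below, and for the others it is the end of that span. Capitals mark matches, on either strand, to GTCTAGAC (a palindrome that Smad proteins bind), GGCGCC and GGAGCC (GC-rich sequences that BMP Smads bind) and CAGCTG (an E-box, the kind of site bound by the factors that Id proteins hold back). In Id3 the match is GGCTCC, which is GGAGCC on the other strand.
Smad6 (chr9:64022010-64022309, strand -): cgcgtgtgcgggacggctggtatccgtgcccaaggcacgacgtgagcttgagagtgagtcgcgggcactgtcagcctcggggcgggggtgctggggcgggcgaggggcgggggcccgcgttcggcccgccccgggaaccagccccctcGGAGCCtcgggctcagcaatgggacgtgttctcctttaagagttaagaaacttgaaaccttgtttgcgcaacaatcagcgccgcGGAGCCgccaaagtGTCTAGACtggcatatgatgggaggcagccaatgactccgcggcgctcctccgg
Id2 (chr12:25096043-25096342, strand -): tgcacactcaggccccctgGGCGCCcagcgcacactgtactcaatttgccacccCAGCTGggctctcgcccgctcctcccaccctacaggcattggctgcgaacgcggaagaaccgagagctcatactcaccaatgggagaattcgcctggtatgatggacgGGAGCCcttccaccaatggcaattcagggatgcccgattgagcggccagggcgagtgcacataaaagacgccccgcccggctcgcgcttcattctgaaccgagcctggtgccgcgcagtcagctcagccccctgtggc
Id4 (chr13:48260866-48261165, strand +): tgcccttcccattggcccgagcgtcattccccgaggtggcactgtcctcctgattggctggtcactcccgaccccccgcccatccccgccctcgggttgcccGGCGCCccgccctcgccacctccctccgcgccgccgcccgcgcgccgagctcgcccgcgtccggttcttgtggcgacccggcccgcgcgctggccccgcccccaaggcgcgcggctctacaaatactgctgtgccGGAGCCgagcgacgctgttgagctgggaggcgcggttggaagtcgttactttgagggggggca
Id3 (chr4:136143572-136143871, strand +): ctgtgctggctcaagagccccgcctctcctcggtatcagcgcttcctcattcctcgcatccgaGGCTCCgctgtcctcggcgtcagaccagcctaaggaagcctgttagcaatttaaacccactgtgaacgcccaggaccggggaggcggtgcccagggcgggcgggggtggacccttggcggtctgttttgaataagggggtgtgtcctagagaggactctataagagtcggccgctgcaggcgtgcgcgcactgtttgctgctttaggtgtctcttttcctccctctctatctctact
Of 32851 RefSeq promoters of the same length, GTCTAGAC was in 0.213%, GGCGCC in 11.9%, GGAGCC in 30.8% and CAGCTG in 16.3%. The Smad6 window held GTCTAGAC, starting 4 bases before the start site of the window, and GGAGCC at 2 places. By the Smad6 gene span given below, GTCTAGAC and the GGAGCC nearest to it lie inside the gene, not before it. Id2 and Id4 each held GGCGCC, 231 and 148 bases before the start, and GGAGCC once, and Id2 also held CAGCTG. Id3 held GGAGCC once and none of the other 3 motifs. Atoh8 held CAGCTG alone, and Bmp4 GGAGCC alone. Atoh8 was also low in BAPN and TPA, and its window, not shown, held none of the Smad-bound motifs. No contrast between the sides of the split is read from these matches. A match says only that these letters are in the window.

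Id1 encodes the Id protein most often read as a BMP target and lies on chromosome 2 (GRCm38, 152736251 to 152737410). It was at 237 and 391 FPKM in the normal libraries and at 46.9 and 28.3 FPKM in the BAPN libraries. The TPA libraries had 61.6 and 43.1 FPKM, the T-5224 libraries 217 and 338 FPKM, and the coQ10 library 204 FPKM. The BAPN mean (37.6 ± 13.15, SD, n = 2) was 8.36-fold below the normal mean (314.5 ± 108.9, n = 2), and the T-5224 mean (277.5 ± 85.85, n = 2) was 7.38-fold above the BAPN mean. In the order of group means, normal, T-5224, coQ10, TPA and BAPN, the neighbours normal and T-5224 overlapped, and so did TPA and BAPN. The step from coQ10 down to TPA was 3.9-fold, without overlap.

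Id2, on chromosome 12 (25093799 to 25096092), encodes an Id protein with wide roles in blood cell and neural development. The normal libraries had 74.6 and 196 FPKM and the BAPN libraries 31.95 and 27.25. With TPA it was 40.45 and 35.54, with T-5224 187 and 89.7, and with coQ10 112 FPKM. The BAPN and TPA values were close to each other within groups and below all the rest. The normal, T-5224 and coQ10 libraries overlapped, with normal replicate 2 standing 2.63-fold and T-5224 replicate 1 2.09-fold above the other library of the group. The BAPN mean (29.6 ± 3.32, SD, n = 2) was 4.57-fold below the normal mean (135.4 ± 85.99, n = 2).

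Id4, on chromosome 13 (48261116 to 48266028), was the least abundant Id gene and the one with the widest range within the family, 25.5-fold over the 9 libraries. The normal libraries had 17.29 and 35.39 FPKM, and the BAPN libraries 1.43 and 2.61 FPKM. The TPA libraries had 11.13 and 13.71 FPKM, the T-5224 libraries 36.45 and 17.7, and the coQ10 library 17.76. Id4 was also the Id gene whose TPA libraries stood farthest from BAPN: the TPA mean (12.42 ± 1.82, n = 2) was 6.15-fold above the BAPN mean (2.02 ± 0.83, n = 2), without overlap. The TPA libraries stayed below each normal, T-5224 and coQ10 library.

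Id3, on chromosome 4 (136143822 to 136145392), was the most abundant of the 8 genes, with a mean of 318.6 FPKM over the 9 libraries, and the least variable, with a 2.71-fold range. The normal libraries had 214 and 445 FPKM and the BAPN libraries 293 and 220. Values were 229 and 183 FPKM with TPA, 459 and 495 with T-5224, and 329.7 with coQ10. Both BAPN values lay between the normal ones, so these groups overlapped. The T-5224 libraries were the highest 2 of the 9, with a mean of 476.9 ± 25.9 against 256.2 ± 51.7 in BAPN (SD, n = 2 in each).

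The make-up of the Id family therefore differed between libraries in a way that no scaling of a whole library changes. A length trend that differs between libraries can change it. The longest transcripts of Id1 and Id3 have 1160 and 1278 bases, and those of Id2 and Id4 have 1969 and 3849. Id3 held 39.4% and 41.7% of the summed Id FPKM without BAPN and 78.5% and 79.1% with BAPN alone. Its share was 67.0% and 66.4% with TPA, 51.0% and 52.6% with T-5224, and 49.7% with coQ10. The ratio of Id1 to Id3 was 1.11 and 0.88 in normal aorta and 0.16 and 0.129 after BAPN. It was 0.269 and 0.236 with TPA, 0.473 and 0.683 with T-5224, and 0.619 with coQ10. The 5 groups did not overlap in this ratio apart from coQ10, which lay between the T-5224 libraries. The Id genes summed to 544 and 1068 FPKM in normal aorta, 373 and 278 after BAPN, 342.5 and 275 with TPA, 899 and 941 with T-5224, and 663 with coQ10.

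**Figure D2:**
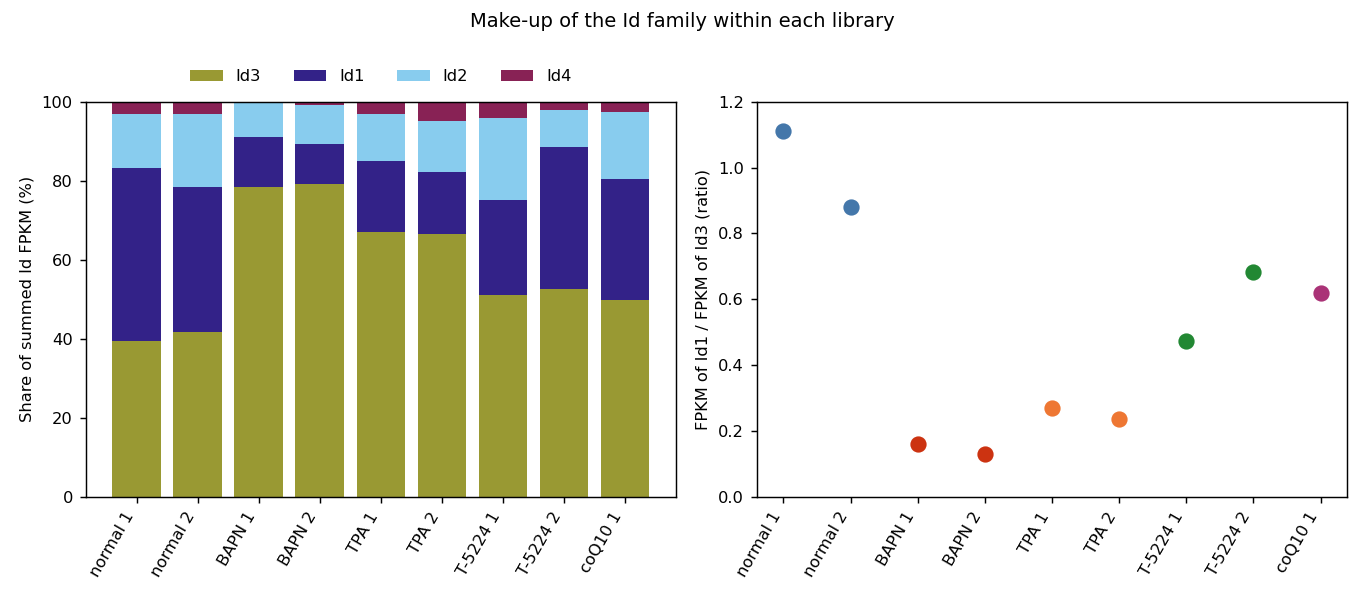
Left, share of each Id gene in the summed Id FPKM (%) of each library; right, ratio of Id1 to Id3 FPKM, 1 point per library. Id3 held 78.5% and 79.1% in the BAPN libraries and 39.4% and 41.7% in the normal libraries, and the ratio was highest in normal, followed by T-5224 and coQ10, then TPA, then BAPN.

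Among the feedback inhibitors, Smad6, on chromosome 9 (63953076 to 64022085), encodes the inhibitory Smad that acts mainly on BMP signals. Normal aorta had 28.0 and 73.35 FPKM of Smad6 and the BAPN libraries 8.06 and 4.37. It was at 10.08 and 7.22 FPKM with TPA, 36.95 and 10.16 with T-5224, and 33.86 with coQ10. The normal and BAPN libraries did not overlap, and the means differed 8.16-fold (50.7 ± 32.05 against 6.22 ± 2.61, SD, n = 2 in each). The T-5224 libraries differed from each other 3.64-fold, and TPA and BAPN overlapped.

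Smad7, on chromosome 18 (75367365 to 75395935), encodes the inhibitory Smad that also blocks TGF-beta receptors. Smad7 stood at 10.8 and 37.4 FPKM without BAPN and at 3.97 and 3.49 FPKM with BAPN alone. The TPA libraries had 6.47 and 4.11, the T-5224 libraries 15.23 and 2.27, and the coQ10 library 12.48 FPKM. The lowest of the 9 values was T-5224 replicate 2, and T-5224 replicate 1 and coQ10 lay with the normal libraries. The difference of T-5224 from BAPN was 0.62 log2 (SE 0.83), and -0.53 without T-5224 replicate 1. Smad6 exceeded Smad7 in every library, by 1.25-fold in BAPN replicate 2 to 4.48-fold in T-5224 replicate 2.

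Atoh8, on chromosome 6 (72206174 to 72235780), encodes a basic helix-loop-helix factor reported as a BMP-responsive gene of endothelial cells. Normal aorta had 35.1 and 131 FPKM and the BAPN libraries 7.22 and 2.61. Atoh8 reached 12.37 and 14.69 FPKM with TPA, 50.6 and 32.15 with T-5224, and 64.1 with coQ10. Its range over the 9 libraries, 50.2-fold, was the widest of the 8 genes. The group means were in the order normal, coQ10, T-5224, TPA and BAPN, and each step from coQ10 downward was free of overlap (1.55-fold, 3.06-fold and 2.75-fold). The BAPN mean (4.92 ± 3.26, n = 2) was 16.9-fold below the normal mean (83.1 ± 67.9, n = 2), whose own libraries differed 3.74-fold.

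Bmp4, on chromosome 14 (46383525 to 46390669), encodes a ligand of the pathway that vascular cells can make. Its level was 11.5 and 9.82 FPKM in normal aorta and 15.64 and 7.09 after BAPN. With TPA it was 22.97 and 18.03 FPKM, with T-5224 43.24 and 12.98, and with coQ10 16.76. The normal values lay between the BAPN values, and the TPA and coQ10 libraries were above all 4 of these. The highest value was that of T-5224 replicate 1, 3.33-fold above its partner. Bmp4 therefore did not follow the order of Id1, Id2, Id4, Smad6 and Atoh8. The ratio of Bmp4 to Id1 was 0.0484 and 0.0251 in normal aorta and 0.333 and 0.251 after BAPN. It was 0.373 and 0.419 with TPA, 0.199 and 0.0384 with T-5224, and 0.0821 with coQ10.

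BAPN against normal asked what BAPN does to the aorta. On the scale of log2(FPKM + 1), the differences were -3.66 (SE 0.67) for Atoh8, -3.12 (0.48) for Id4, -3.03 (0.44) for Id1, -2.74 (0.69) for Smad6, -2.17 (0.83) for Smad7 and -2.0 (0.54) for Id2, with n = 2 in each group. Id3 differed by -0.28 (0.45) and Bmp4 by -0.00 (0.59). The median over the 8 genes was -2.45, and over all 12997 tested genes -0.51. The libraries did not overlap for 6 of the 8 genes, all lower in BAPN, while 51.1% of all tested genes were lower and 15.0% higher without overlap. Because the genes were picked with these values known, nothing is read from this count or from those of the other comparisons. The size of these differences depended on the scaling and on the normal libraries. With TPM they were -5.12 for Atoh8, -4.67 for Id1, -4.45 for Id4, -4.24 for Smad6, -3.63 for Id2 and -3.60 for Smad7. With median-of-ratios scaling Atoh8 was -3.14, Id1 -2.45, Smad6 -2.20 and Id2 -1.43. Without normal replicate 1 Atoh8 was -4.60 and Smad7 -3.02, and without normal replicate 2 they were -2.73 and -1.32. The Id3 difference turned to 0.30 with median-of-ratios scaling and was -1.95 after rescaling to TPM, in which the median of all genes was -1.92.

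Comparing TPA with BAPN alone addressed the AP-1 activator. Id4 (2.17, SE 0.48) and Atoh8 (1.41, 0.67) had the largest differences, both in the direction of the normal libraries, and Bmp4 differed by 0.88 (0.59). Id1 (0.49, 0.44), Smad6 (0.45, 0.69), Smad7 (0.39, 0.83) and Id2 (0.35, 0.54) differed by at most 0.49, and Id3 by -0.31 (0.45). The libraries of 5 of the 8 genes were higher with TPA without overlap and none were lower, against 41.4% and 21.2% of all tested genes.

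T-5224 against BAPN asked what the AP-1 inhibitor changes. Id4 (3.16, SE 0.48), Atoh8 (2.92, 0.67), Id1 (2.86, 0.44) and Id2 (2.10, 0.54) were higher with T-5224 by at least 2.10 log2, against a median of 0.35 for all tested genes. Smad6 differed by 1.56 (0.69), Bmp4 by 1.10 (0.59), Id3 by 0.91 (0.45) and Smad7 by 0.62 (0.83). The libraries of 6 of the 8 genes were higher with T-5224 without overlap, against 34.2% of all tested genes (12.8% were lower), and those of Smad7 and Bmp4 overlapped. Smad6 was 0.68 without T-5224 replicate 1 and 2.44 without T-5224 replicate 2. Bmp4 was 0.27 and 1.93 in the same 2 fits.

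CoQ10 against BAPN rested on 1 library, so its spread was taken from the groups with 2 libraries. Atoh8 (3.58, SE 0.82), Id4 (2.66, 0.59), Id1 (2.45, 0.54), Smad6 (2.32, 0.85), Id2 (1.89, 0.66) and Smad7 (1.51, 1.02) were higher than in BAPN, and Bmp4 (0.61, 0.73) and Id3 (0.38, 0.55) differed by less than 1 SE. The coQ10 library exceeded both BAPN libraries for all 8 genes, and did so for 59.6% of all tested genes, with 24.1% below both. The median over the 8 genes was 2.10 and over all tested genes 0.39. The T-5224, coQ10 and TPA comparisons share the BAPN libraries, so their values are not independent of each other.

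TPA against T-5224 set the AP-1 activator beside the inhibitor. The differences, TPA minus T-5224, were -2.37 (SE 0.44) for Id1, -1.75 (0.54) for Id2, -1.51 (0.67) for Atoh8, -1.21 (0.45) for Id3, -1.11 (0.69) for Smad6 and -0.99 (0.48) for Id4. Smad7 (-0.24, 0.83) and Bmp4 (-0.22, 0.59) differed by less than 1 SE, and the libraries of both overlapped. The other 6 of the 8 were lower with TPA without overlap, against 28.0% of all tested genes (16.5% were higher). With haemoglobin left out of the sum, Id1 was -1.68, Id2 -1.06, Atoh8 -0.85, Id3 -0.52, Smad6 -0.49 and Id4 -0.34. Without T-5224 replicate 1, Smad6 was -0.23 and Id4 -0.49, and without T-5224 replicate 2 they were -1.99 and -1.49.

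**Figure D3:**
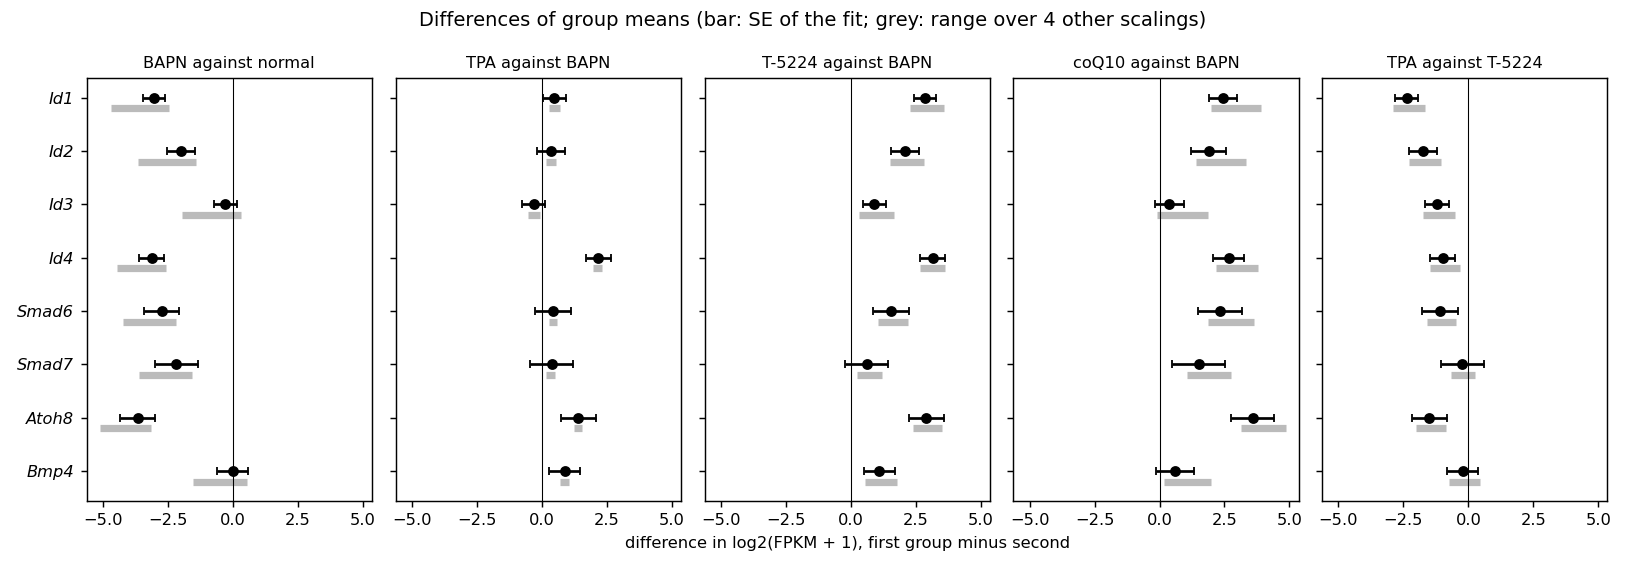
Differences of group means in log2(FPKM + 1), first group minus second, for the 8 genes in the 5 comparisons; points are the limma estimates with their SE, and grey bars span the estimates under 4 other scalings. In BAPN against normal, the genes other than Id3 and Bmp4 lie at -1.43 or lower under each scaling shown, and Id3 and Bmp4 cross 0.

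Smooth muscle genes were also lower in BAPN than in normal. The mean of 10 smooth muscle markers, all listed in every library, was 7.93 and 9.37 in normal aorta and 5.61 and 4.65 after BAPN, in log2(FPKM + 1). It was 6.37 and 6.66 with TPA, 8.24 and 5.95 with T-5224, and 8.32 with coQ10. Atoh8 less this mean was between -2.80 and -2.29 in 8 libraries, a spread of 0.51 where Atoh8 itself spread over 5.19. T-5224 replicate 2 was the exception, at -0.90, and the spread with it was 1.90. Smad6 less the mean spread over 1.39 in all 9 libraries, against 3.79 for Smad6 itself. For Id1 the spread over all 9 libraries was 3.66, against 3.74 for Id1 itself. It was 1.42 in the 8 libraries without T-5224 replicate 2, which stood at 2.46 where the 8 ran from -1.20 to 0.22. Over the 9 libraries Id2 spread over 2.30 against 2.80, Id4 over 2.60 against 3.95 and Smad7 over 2.08 against 3.55. Id3 and Bmp4 went the other way: subtracting the smooth muscle mean widened the spread from 1.43 to 3.70 for Id3 and from 2.45 to 4.38 for Bmp4. The part of smooth muscle content in the differences was not tested.

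**Figure D4:**
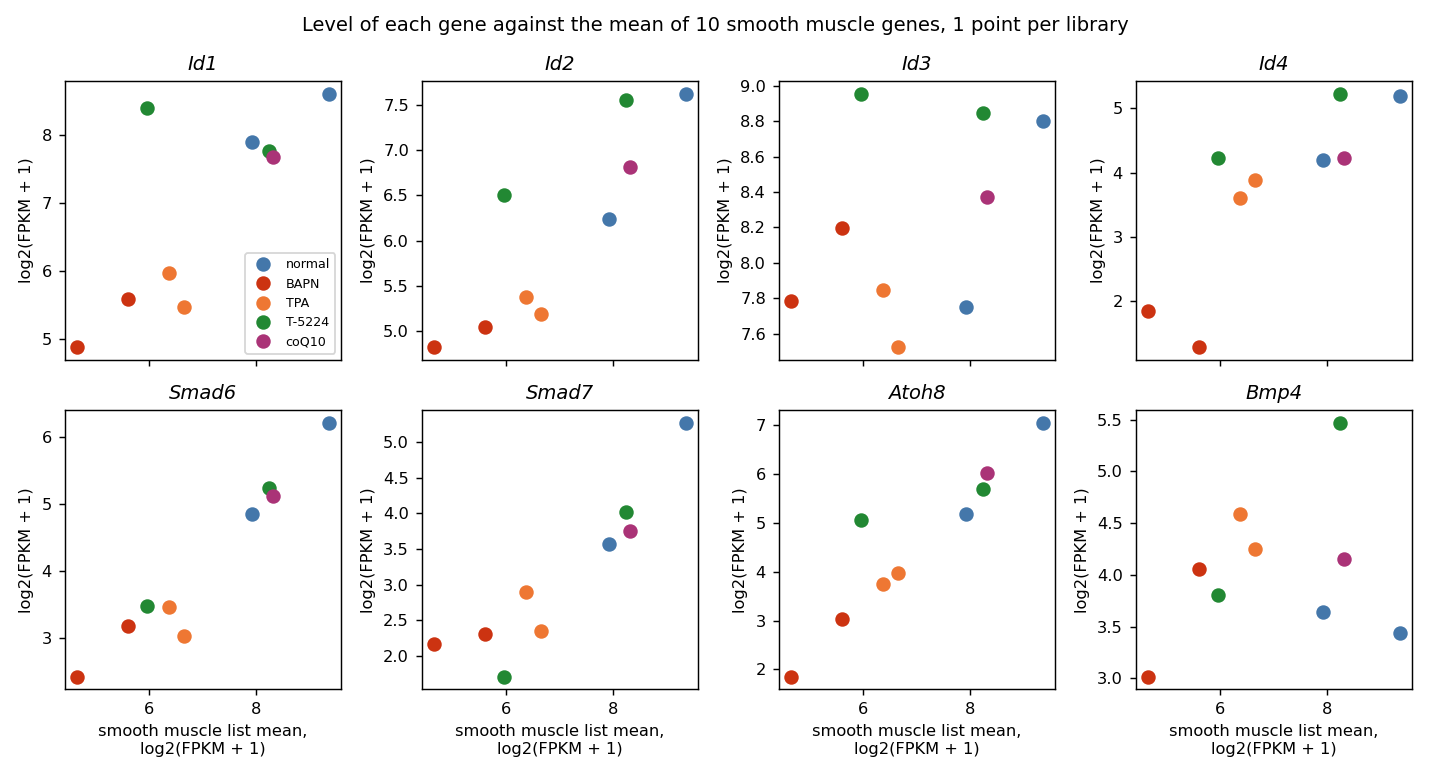
Level of each gene, log2(FPKM + 1), against the mean of 10 smooth muscle genes on the same scale, 1 point per library coloured by group. For Atoh8, 8 libraries lie within a band of 0.51 and T-5224 replicate 2 lies above it; Id3 and Bmp4 show no such band.

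The endothelial list mean did not follow the same order. The mean of 12 endothelial markers was 5.73 and 5.32 in normal aorta, 5.89 and 5.55 after BAPN, 5.01 and 5.25 with TPA, 4.14 and 6.26 with T-5224, and 6.01 with coQ10. Its markers did not move together between normal and BAPN. Pecam1, Tek and Kdr (64.01 and 27.8 FPKM against 11.74 and 17.63) were lower in BAPN without overlap. Egfl7 and Cldn5 (28.25 and 48.35 FPKM against 281.8 and 187.51) were higher, and the other markers overlapped. The mean is therefore not a steady measure of endothelial content. Subtracting the endothelial mean left Id1 at 2.17 and 3.30 in normal and -0.31 and -0.67 in BAPN, without overlap. Atoh8 less the endothelial mean was -0.55 and 1.72 in normal and -2.85 and -3.70 in BAPN, and Smad6 was -0.87 and 0.89 against -2.71 and -3.12. Id3 and Bmp4 overlapped on this measure. As the mean is not steady, these values do not show the part of endothelial content, which was not tested. Red cell markers, 7 or 8 of 8 listed in each library, had means of 5.88 and 5.61 in normal aorta, 11.66 and 11.71 after BAPN, 11.94 and 11.69 with TPA, 10.89 and 8.29 with T-5224, and 7.62 with coQ10. T-5224 replicate 1 combined a red cell mean of 10.89 with 217 FPKM of Id1 and 36.45 FPKM of Id4, next to the normal values. Its haemoglobin share, 40.8%, was below the 68.9% to 74.1% of the BAPN and TPA libraries, and its smooth muscle mean was 8.24. As this is 1 library, nothing about blood content is read from it. Neutrophil markers were at 5.71 and 5.10 in BAPN and 5.59 and 3.68 in TPA, against 1.65 to 3.32 in the other 5 libraries. The part of blood content was not tested.

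Other genes of the pathway were taken from lists of 75 genes by role, of which 62 were tested. In BAPN against normal 2 of the 62 fell and none rose (limma, Benjamini-Hochberg adjustment over all tested genes). Of all tested genes 3.26% were called, 0.900% higher and 2.36% lower. An unadjusted p under 0.05 was found for 30 of the 62 and for 4216 of all 12997 tested genes. The median of the 62 was -0.91 against -0.51 for all tested genes. Rgma, a membrane-anchored BMP co-receptor, fell by 2.84 log2 (SE 0.45, limma adjusted p = 0.0458), with 20.39 and 15.31 FPKM in normal and 2.37 and 1.01 FPKM in BAPN. Ctdsp1, a phosphatase that can act on Smad proteins, fell by 1.73 (SE 0.33, limma adjusted p = 0.049), from 101.8 and 110.1 FPKM to 38.36 and 25.49 FPKM. Their levels with TPA were 9.93 and 14.51 FPKM for Rgma and 50.7 and 62.3 for Ctdsp1, with T-5224 14.07 and 6.48 and 88.9 and 116, and with coQ10 12.52 and 118. Over 18 alternatives the Rgma call was lost in 11 (limma adjusted p 0.0549 to 0.246) and the Ctdsp1 call in 14 (0.0517 to 0.246). Leaving out a single normal, BAPN or TPA library, whichever it was, ended both calls, and leaving out either T-5224 library raised the number called among the 62. Counts over all tested genes also changed with the library left out. With median-of-ratios scaling 1 rose (Tgif1) and 1 fell (Rgma). With TPM 46 of the 62 fell, as did 9557 of all 13100 genes tested.

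All 10 receptor genes had negative differences in BAPN against normal, with a median of -1.26. Most tested genes did: 72.3% lay below the Bmp4 difference of -0.00, and the median of all was -0.51. Endoglin (Eng, -1.47, SE 0.33, limma adjusted p = 0.0552), Acvrl1 (-1.31, 0.30, 0.0558) and Bmpr1a (-1.87, 0.61, 0.0955) missed the threshold. Eng was at 156 and 97.6 FPKM in normal and at 47.5 and 40.85 FPKM in BAPN, without overlap. Of the receptor-regulated Smads, Smad5 (-1.30, 0.28, 0.0528) and Smad9 (-2.23, 0.60, 0.0695) missed it, and Smad1 was at 13.4 and 19.3 FPKM in normal and 19.2 and 15.3 in BAPN (0.09, SE 0.38, limma adjusted p = 0.885). Smad9, itself a BMP-induced gene, had 5.28 and 12.32 FPKM in normal aorta, 0.68 and 1.27 after BAPN, 1.20 and 1.73 with TPA, 4.57 and 0.97 with T-5224, and 4.48 with coQ10. It was thus low in BAPN, TPA and T-5224 replicate 2, as Smad7 was.

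Of the 5 tested ligand genes none was called. Bmp3, a ligand known to counter other BMPs, had 16.73 and 14.49 FPKM in normal aorta, 1.19 and 0.77 after BAPN, 6.02 and 3.52 with TPA, 6.33 and 0.42 with T-5224, and 6.93 with coQ10 (BAPN against normal -3.07, SE 0.72, limma adjusted p = 0.0577). Among 15 tested antagonists, Sost, which encodes the secreted protein sclerostin, had the smallest p, with 291 and 1158 FPKM in normal aorta, 9.6 and 5.0 after BAPN, 61.8 and 53.0 with TPA, 563 and 20.9 with T-5224, and 429.9 with coQ10. Its difference in BAPN against normal was -6.19 (SE 1.42, limma adjusted p = 0.0558). The antagonist Fst (follistatin) was at 7.28 and 3.83 FPKM in normal and 25.5 and 20.65 in BAPN (1.92, SE 0.69, limma adjusted p = 0.114), with the antagonist list's median at -0.33.

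The BMP-induced homeobox gene Msx1 had 5.54 and 8.02 FPKM in normal aorta, 1.48 and 2.18 after BAPN, 4.32 and 1.63 with TPA, 9.47 and 10.26 with T-5224, and 7.55 with coQ10. Like Id1, it was lower in each of the 4 BAPN and TPA libraries than in each of the other 5. Of all tested genes, 10.2% had this pattern. Hey2, Acvrl1, Ctdsp1 and Stub1 had it too, so it is not particular to Msx1. In T-5224 against BAPN, Msx1 differed by 1.95 (SE 0.41, limma adjusted p = 0.148). Of the other BMP-responsive genes, Hey1, Tmem100 and Hes1 overlapped between BAPN and normal. Hey1 had 19.9 and 11.7 FPKM against 13.7 and 8.98, and Tmem100 had 15.87 and 11.15 FPKM against 27.45 and 8.67. Hey2 was lower in BAPN without overlap (8.62 and 6.32 FPKM against 10.48 and 24.24). Gata2 (18.72 and 23.27 FPKM against 13.66 and 9.53) and Gata3 (2.29 and 6.17 against 1.67 and 0.19) were higher in BAPN without overlap. The mean of 5 T cell markers was 2.25 and 4.84 in BAPN and 1.77 and 0.45 in normal, in log2(FPKM + 1). It was 3.66 and 3.18 with TPA, where Gata3 was at 0.84 and 1.04 FPKM. The part of T cells in the Gata3 values was not tested. The median of the 7 tested other BMP-responsive genes was -0.04 in BAPN against normal. Among the E proteins, the partners of the Id proteins, Tcf3 ran from 14.35 to 23.0 FPKM over the 9 libraries and Tcf12 from 12.85 to 21.6 FPKM, while Tcf4 ran from 9.64 FPKM in TPA replicate 1 to 36.85 FPKM in T-5224 replicate 2. Tcf12 differed by -0.62 in BAPN against normal (SE 0.25, limma adjusted p = 0.147). Of 10 TGF-beta-induced genes none was called. Tgif1, a Smad-binding repressor, differed by 1.52 (SE 0.39, limma adjusted p = 0.0655), at 11.1 and 8.77 FPKM in normal and 33.1 and 27.6 in BAPN, and the list's median was -0.78. Tgif1 was called higher with median-of-ratios scaling (2.07, limma adjusted p = 0.0451) and without either T-5224 library (0.017 and 0.0162), and its difference was -0.05 with TPM (0.918).

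None of the 62 was called by limma in the other 4 comparisons, where 6 (TPA against BAPN), 10 (T-5224 against BAPN), 17 (coQ10 against BAPN) and 8 (TPA against T-5224) had an unadjusted p under 0.05. In the same order, 1320, 2379, 2572 and 1413 of all 12997 tested genes had one. Of all tested genes, 0.0385%, 0.0308%, 0.0154% and 0.0154% were called in these comparisons. With TPM, 13 of the 62 rose in T-5224 against BAPN and 36 rose in coQ10 against BAPN. Of all 13100 genes tested with TPM, 3015 and 7207 rose in these comparisons, so nothing particular to the pathway is read from these counts. Without normal replicate 1 and T-5224 replicate 2 together, some of the 62 were called in each of the 4 comparisons. The counts over all tested genes rose in that fit as well. With only the 2 groups fitted, 8 of the 62 were called in TPA against BAPN (7 rose and 1 fell). More of all tested genes were called there too. The smallest p in TPA against BAPN was that of Rgma (2.32, SE 0.45, limma adjusted p = 0.316), in T-5224 against BAPN and in coQ10 against BAPN that of Ctdsp1 (1.67, 0.33, 0.148, and 1.88, 0.40, 0.185), and in TPA against T-5224 that of the antagonist Chrdl1 (1.07, 0.27, 0.443). Other genes with the lowest p of their list were, in TPA against BAPN, Gdf6 (2.13), Tob1 (1.68), Gata3 (-1.33), Tgif1 (-1.21) and Tcf4 (-0.53), with limma adjusted p between 0.433 and 0.737. In T-5224 against BAPN they were Msx1, Rgma, Chrdl1 (-1.11), Tgif1 (-1.05), Bmp6 (0.65) and Tcf12 (0.26), with limma adjusted p between 0.148 and 0.588. In coQ10 against BAPN they were Rgma, Sost (5.76), Msx1 (1.61), Bmp6 (1.23), Pmepa1 (3.40) and Tcf12 (0.59), with limma adjusted p between 0.185 and 0.333. In TPA against T-5224 they were Msx1 (-1.54), Stub1 (-1.05), Rgmb (0.98), Cyr61 (1.33), Tcf4 (-0.88) and Bmp5 (0.81), with limma adjusted p between 0.443 and 0.643. Noggin (Nog) was at 2.3 and 3.29 FPKM in TPA against 0.51 and 0.19 in BAPN (1.49, 0.42, limma adjusted p = 0.395), and near 0 in T-5224 replicate 1 (0.14) and coQ10 (0.11).

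**Figure D5:**
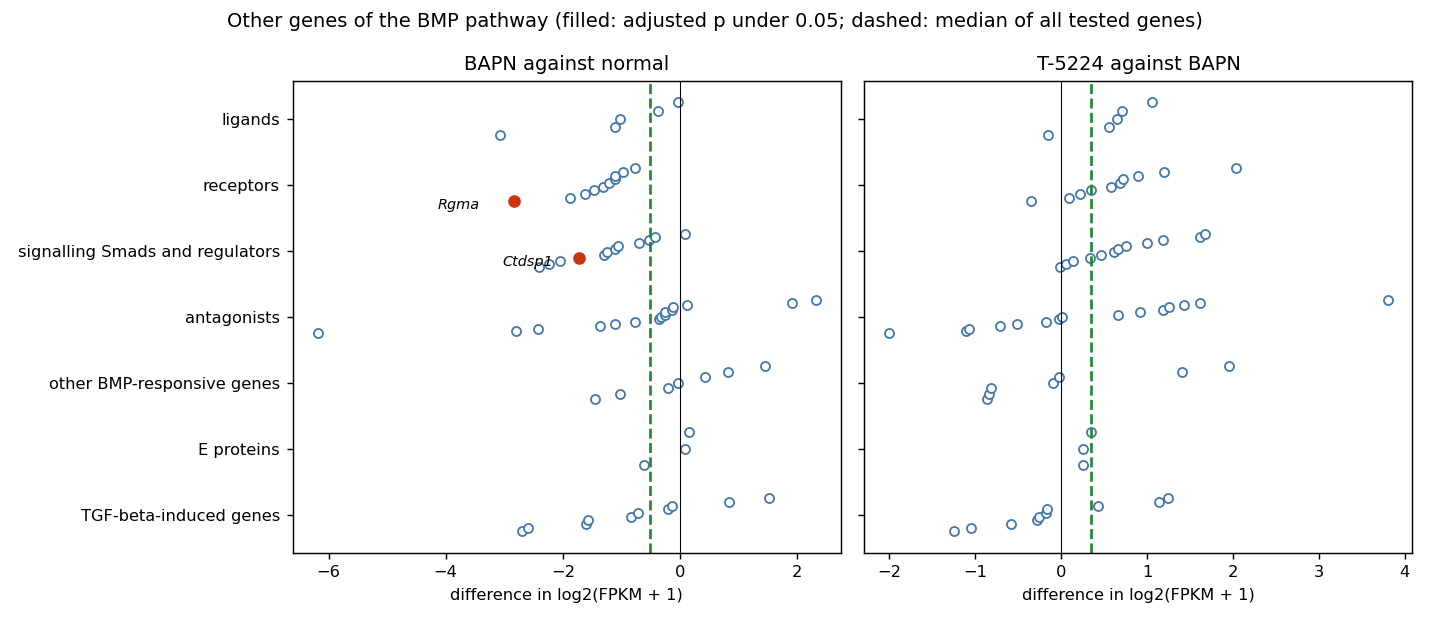
Differences in log2(FPKM + 1) of the tested genes of 7 role lists in BAPN against normal (left) and T-5224 against BAPN (right); each point is a gene, filled where the limma adjusted p was under 0.05, and the dashed line is the median of all tested genes (-0.51 and 0.35). Rgma and Ctdsp1 are the filled points, and all 10 receptor genes lie below 0 on the left. In that comparison 72.3% of all tested genes lay below the Bmp4 difference of -0.00.

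The genes whose pattern over the 9 libraries was most like each of the 8 were ranked by Pearson's r of log2(FPKM + 1). The 9 points share treatment groups and library scaling, so r is given as a description. Id1 was nearest to Pitpnb (r = 0.989), Rora (0.988) and Ccdc71 (0.986), and Id2 to Oat (0.989), Anapc7 (0.975) and Amigo2 (0.974). Smad6 was nearest to Msrb3 (0.994), Rcan2 (0.988) and A4galt (0.988), and Atoh8 to Anxa11 (0.989), Hoxb3 (0.987) and Mitf (0.984). Smad7 was nearest to Lrrfip1 (0.987), Tgfbr1, a TGF-beta receptor gene (0.984), and Myo9b (0.980). Id3 was nearest to Fam188a (0.983), Dctn6 (0.949) and Pole4 (0.946), and Id4 to Tmem39a (0.977), Usp54 (0.971) and Pigc (0.971). For Bmp4, Fcgr1 (0.959), S100a11 (0.890) and Lgmn (0.878) were nearest, and none of the 8 was among the nearest 3 of another.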

How the data were processed

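Expression was measured in 9 bulk libraries of mouse aorta made with a TruSeq RNA kit, per the labels' protocols. Each library's deposited table gives FPKM by gene symbol to 2 decimals and leaves out genes at 0, and mm10 is named in the submitters' processing notes. Aligner, counting tool, annotation and strand setting: not given in the sources used here. Unlisted genes were set to 0. Depth is unknown, and precision near 0 is limited. Among genes in a fixed window of low FPKM, a low percentile of FPKM times transcript length differed at most 1.37-fold between libraries. The window held 87 genes in T-5224 replicate 2 and 675 in TPA replicate 1. Because the window itself limits that value, nothing about depth is read from it.

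Values were transformed to log2(FPKM + 1), so that differences of low genes are understated. The 12997 genes with a mean of at least 1 FPKM were fitted in limma 3.58.1 (R 4.3.3) with 5 groups, 4 residual degrees of freedom and an intensity trend. P-values are two-sided and Benjamini-Hochberg adjusted over all tested genes, with a threshold of 0.05, and the fit was tested on simulated data. Tables were handled with python 3.11.15, pandas 2.3.3 and numpy 2.4.6 and drawn with matplotlib 3.10.9. Alternatives covered scaling (median of ratios, TPM, haemoglobin left out of the sum), the transcript length trend (lengths from GENCODE M21 for 97.3% of tested genes), the pseudocount, filters, the libraries fitted, the replicate block and left-out libraries.

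The 8 genes and all lists were chosen with earlier results of these data known. The text names the 8 genes, pathway genes that were called or had the smallest p of their list in a comparison, the 3 genes most like each of the 8, and some further pathway genes (Eng, Acvrl1, Bmpr1a, Smad1, Smad5, Smad9, Fst, Hey1, Hey2, Hes1, Gata2, Tmem100 and Tcf3) chosen after their values were seen. Endothelial markers that did not overlap between normal and BAPN are also named. Marker lists of 13 cell types were checked, and some of them are given. Coordinates and promoters come from RefSeq for GRCm38.p6, the same assembly as mm10. Genes that overlap Id4, Smad7, Atoh8 or Bmp4 have no entry of their own in the tables used, and without strand information their reads cannot be told apart.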

Additional observations from a re-analysis of the deposited data

How the results depend on the processing

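Counts of called genes over all tested genes depended on the processing. As reported they were 424 (BAPN against normal), 5 (TPA against BAPN), 4 (T-5224 against BAPN), 2 (coQ10 against BAPN) and 2 (TPA against T-5224). Leaving out 1 library gave 0 to 3670, 0 to 9, 0 to 85, 0 to 104 and 0 to 666 in that order. Counts that moved by over 1.5 times, in the same order of comparisons, were as follows. For BAPN against normal they were 227 with median-of-ratios scaling, 9703 with TPM, 30 with haemoglobin left out of the sum, 139 with the length trend removed, 152 with a pseudocount of 0.1, 53 without a filter, 209 with at least 1 FPKM in 2 libraries, 37 with only the 2 groups and 8 with the replicate block. Of the 424, 117 were higher and 307 lower, against 197 and 30 with median-of-ratios scaling 146 and 9557 with TPM, 28 and 2 with haemoglobin left out, and 122 and 17 after removing the length trend. For TPA against BAPN they were 2 with TPM, 1 with the length trend removed, 0 with a pseudocount of 0.1, 9 without a filter, 972 with only the 2 groups and 2 with the replicate block. For T-5224 against BAPN they were 35 (median of ratios), 3127 (TPM), 13 (haemoglobin left out), 44 (length trend removed), 2 (pseudocount of 0.1), 2 (no filter), 0 (only the 2 groups) and 0 (replicate block). For coQ10 against BAPN they were 10 (median of ratios), 7320 (TPM), 1 (pseudocount of 0.1), 7 (no filter) and 0 (only the 2 groups). For TPA against T-5224 they were 4 (haemoglobin left out), 0 (pseudocount of 0.1), 8 (no filter) and 0 (only the 2 groups). Without normal replicate 1 and T-5224 replicate 2 together, which stood apart in tissue genes, the counts were 4032, 1023, 2245, 2967 and 584, with the spread coming from the BAPN and TPA pairs alone. Fits with 0 called genes, besides those that left out a library, still held 1102 to 3705 genes with an unadjusted p under 0.05 (limma), and the 17 that left out a library held 397 to 2711. The causes were not tested.

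Of the 62 pathway genes, 2 were called as reported, against 0 with haemoglobin left out, the length trend removed, no filter, only the 2 groups or the replicate block (16 to 32 with an unadjusted p under 0.05, limma), 2 with median-of-ratios scaling (1 rose and 1 fell), 46 with TPM, 24 without T-5224 replicate 1 or 2 and 29 without normal replicate 1 and T-5224 replicate 2 together. Differences of Id1, Id2, Id4, Smad6 and Atoh8 kept their sign in all 5 comparisons under every alternative run, but not their size: in BAPN against normal Id1 ran from -4.67 to -2.45 and Atoh8 from -5.12 to -3.14 over the scalings. Those of Id3, Smad7 and Bmp4 changed sign under at least 1. Tcf4 was at 0.16 in BAPN against normal as reported and at -1.40 with TPM (limma adjusted p = 0.0364). The same replicate number did not pair the samples: deviations from group means correlated at -0.437 to 0.176 over 6 pairs of groups. No paired value was possible for coQ10, whose number comes from no label.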
